A study of Caenorhabditis elegans with 2 samples.

Results

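MicroRNA genes were examined for binding of HIF-1, the worm hypoxia-inducible factor, in whole Caenorhabditis elegans. The members are all 261 genes of biotype miRNA among the 46926 genes of the Ensembl annotation of the WBcel235 assembly (ce11). The rule for members uses no measured value, but this class was chosen with earlier results of these data known. Chromatin immunoprecipitation with an antibody against GFP was carried out on fourth-stage (L4) hermaphrodites of strain OR3350, which stably carry HIF-1 with GFP and FLAG at its C-terminal end. The animals were collected 55 h after synchronisation as starved first-stage larvae, in 2 biological replicates that form 1 group. All results come from this 1 tagged line, and no oxygen condition is named in the labels. Tissues were not separated, so a site used in few cells and a site used weakly in many cannot be told apart. A member was called bound when a peak summit lay from 1000 bp upstream to 200 bp downstream of its gene start in the thresholded list. That list holds the 631 peaks that the authors kept after a test of reproducibility. Of these, 596 (94.5%) had a summit within 100 bp in both replicate lists, so a bound call alone does not mean a match in both. The relaxed lists (6541 peaks for the pooled reads, 13935 for replicate 1 and 13823 for replicate 2) hold background as well as peaks by design, so a summit there is described as present, not as binding. Signal is the authors' value relative to a control, with a formula not given in the sources used here, and is compared only within a list. The files hold no read counts, and the depth behind each peak is unknown.

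MicroRNAs are short RNAs that guide Argonaute proteins to messenger RNAs, mostly through a seed at bases 2 to 8, and lower their translation or stability. They are cut by Drosha and then Dicer from a hairpin inside a longer primary transcript. For most of these genes the annotation gives the hairpin, so the gene start used here is the start of the hairpin and not of the primary transcript, which can lie further upstream. The entry for let-7 is an exception and spans 1732 bp. HIF-1 pairs with AHA-1 and binds a short core, ACGTG or GCGTG.

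Of the 261 miRNA genes, 11 were bound (4.21%, 95% Wilson interval 2.37 to 7.39), against 1.67% of all annotated genes and 1.97% of the 19985 protein-coding genes. They were mir-51, mir-52, mir-54, mir-55 and mir-56, which belong to 1 family with a common seed, and mir-80, mir-77, mir-354, mir-4929, mir-5549 and mir-8186-2. The 11 genes rested on 9 distinct summits, because mir-54, mir-55 and mir-56 form 1 cluster with 1 summit. The interval treats the genes as independent, which clustered hairpins are not, and no test of the share was made. Inside protein-coding genes 5 of 109 were bound (4.59%), and between them 6 of 152 (3.95%).

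The sequences of the mir-51 family are shown first because 5 of its 6 genes were bound, against 1.67% of all annotated genes. When the summit had to lie at most 500 bp upstream and 100 bp downstream, only mir-51 and mir-54 counted as bound (2 of 6, all annotated genes 1.16%). The summits of mir-52, mir-55 and mir-56 lay further upstream. This family is related to the miR-100 family of other animals, and in C. elegans the loss of all its members is lethal to embryos. The mature arms that carry the common seed were read from the RefSeq WBcel235 genome, 5′ to 3′, with the seed in capitals.
mir-51: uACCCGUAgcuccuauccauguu
mir-52: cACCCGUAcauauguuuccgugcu
mir-53: cACCCGUAcauuuguuuccgugcu
mir-54: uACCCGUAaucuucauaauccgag
mir-55: uACCCGUAuaaguuucugcugag
mir-56: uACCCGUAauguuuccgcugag
The seed ACCCGUA was found in these 6 genes and in no other of the 257 miRNA genes with a mature arm in RefSeq. Of 374 distinct seeds, only 43 were shared by 2 or more genes, and only ACCCGUA by 2 or more bound genes. Among those bound genes, mir-54, mir-55 and mir-56 share 1 summit. Beyond the seed the 6 differ, except that mir-52 and mir-53 are close to identical. The arm with this seed is the 5′ arm of the hairpin in mir-51, mir-52 and mir-53 and the 3′ arm in mir-54, mir-55 and mir-56.

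The genes of the family lie at 3 separate places, on chromosome X (mir-54 to mir-56), on chromosome IV (mir-51 with mir-53) and elsewhere on chromosome IV (mir-52), and each place had a thresholded summit. The plus-strand sequence of ce11 within 50 bp of each of these summits, and of the mir-80 summit, is given here to show where the core lies. Capitals mark ACGTG or GCGTG and the sequence CTCCGCCC, each on either strand.
mir-54 to mir-56, chrX:13145380-13145480: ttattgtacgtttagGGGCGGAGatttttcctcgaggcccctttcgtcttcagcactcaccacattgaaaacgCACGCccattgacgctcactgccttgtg
mir-51, chrIV:11026097-11026197: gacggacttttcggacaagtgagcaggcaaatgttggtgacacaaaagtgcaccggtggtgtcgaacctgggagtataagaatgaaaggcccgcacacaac
mir-52, chrIV:14033110-14033210: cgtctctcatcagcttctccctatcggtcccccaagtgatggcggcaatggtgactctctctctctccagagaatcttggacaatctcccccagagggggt
mir-80, chrIII:8865454-8865554: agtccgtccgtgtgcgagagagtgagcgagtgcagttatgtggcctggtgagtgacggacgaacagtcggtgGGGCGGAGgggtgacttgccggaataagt
The mir-54 to mir-56 window holds 1 core and the other 3 windows hold none.

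The strongest summit at any miRNA gene lay at mir-54 to mir-56, with a signal of 109 and rank 157 of 631 (chrX:13145208-13145651). It was 336 bp upstream of mir-54, 506 bp upstream of mir-55 and 643 bp upstream of mir-56. The hairpins lie inside F09A5.3, a protein-coding gene read from the opposite strand. The summit was in an intron of it and in no protein-coding promoter window, but also 159 bp upstream of the ncRNA gene F09A5.11. Its match within 100 bp had a signal of 59.6 in replicate 1 (rank 162) and 48.8 in replicate 2 (rank 188), well inside the upper ranks of both lists. A further miRNA gene, mir-55b, is annotated on the strand opposite mir-55, and this summit lies 600 bp downstream of its start, outside the window.

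At mir-51 the summit lay 35 bp upstream of the hairpin start, outside protein-coding genes, with a signal of 82.6 and rank 274 (chrIV:11025925-11026368). It also lay 72 bp downstream of the start of the ncRNA gene F36H1.17, inside the window of that gene. Its match had a signal of 42.2 in replicate 1 (rank 314) and 41.7 in replicate 2 (rank 252). The gene mir-53 lies upstream of mir-51 on the same strand, so that the mir-51 summit is 1544 bp downstream of its start. It was not bound, although a pooled-list summit of 45.2 lay 63 bp upstream of its start, below the lowest thresholded signal of 54.1. The mir-53 window held a summit in replicate 1 (34.1, rank 471) and none in replicate 2.

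The mir-52 summit lay 848 bp upstream of the hairpin, outside protein-coding genes, with a signal of 62.6 and rank 462 (chrIV:14032938-14033381). Its match had a signal of 41.6 in replicate 1 (rank 325) and 28.9 in replicate 2 (rank 555). It lay nearer to the starts of 5 other noncoding genes and in their windows, namely 11 bp downstream of the start of 1 ncRNA gene, 163, 202 and 397 bp upstream of 3 more, and 753 bp upstream of the piRNA gene 21ur-7825. To which of them it belongs cannot be told apart here. The window held 2 more pooled-list summits, of 52.5 at 233 bp and 37.9 at 499 bp upstream. Both lay below the lowest thresholded signal, and the mir-52 window thus held several pooled-list summits where the mir-51 window held 1. All 6 genes of the family had a summit in the pooled list and in the replicate 1 list, and 5 of 6 in the replicate 2 list. The shares of all annotated genes in these lists were 9.96%, 17.7% and 16.8%. The family was among the lists of named miRNAs written with earlier results of these data known, and its count is a description.

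**Figure D1:**
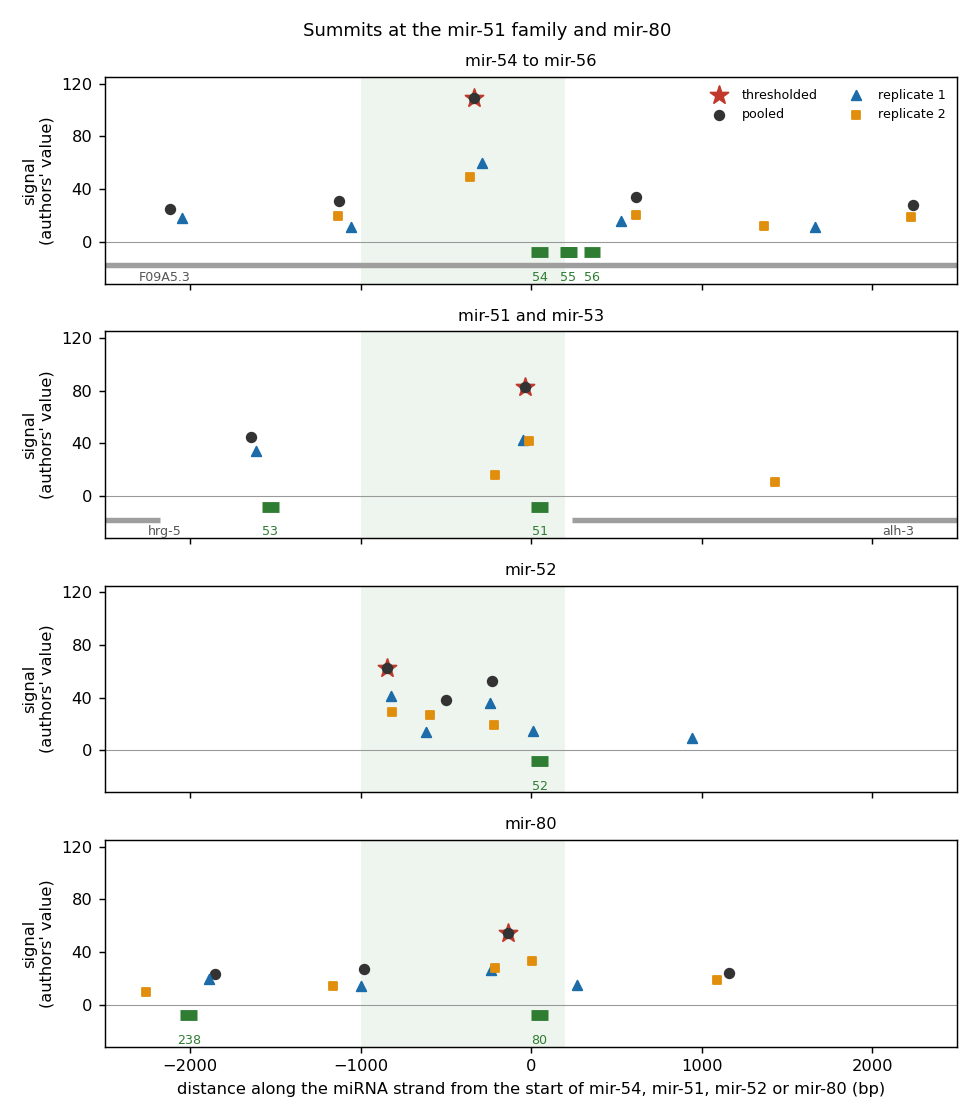
Signal of every peak summit (vertical axis, the authors' value, each list on its own scale) against distance along the miRNA strand in bp from the start of mir-54, mir-51, mir-52 or mir-80. Stars are thresholded, circles pooled, triangles replicate 1 and squares replicate 2 summits, green boxes are miRNA genes labelled by number, grey bars are protein-coding genes, and the shaded band is the window of the first-named gene, which in every panel holds 1 thresholded summit and at least 1 summit of each replicate.

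The gene mir-80 belongs to the mir-58 family, abundant miRNAs related to bantam of Drosophila, which act in body size and dauer formation. Its summit lay 137 bp upstream of the hairpin, outside protein-coding genes and in the window of no other annotated gene, with a signal of 54.7 and rank 616 of 631, near the bottom of the list (chrIII:8865282-8865725). Its match had a signal of 26.6 in replicate 1 (rank 770) and 27.6 in replicate 2 (rank 611), and replicate 2 had a stronger summit of 33.5 elsewhere in the window (rank 407). The gene shared its seed, GAGAUCA, with 5 others, mir-58b, mir-58c, mir-81, mir-82 and mir-2209a, and was the only one of the 6 that was bound. Of the other listed family members, mir-58a had a pooled-list summit of 33.9 at 171 bp upstream, mir-58b had one in replicate 2 alone (9.80, rank 13062), and mir-81 and mir-82 had none in any list.

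The remaining 5 bound genes are less studied, and 4 of their 5 summits also lay in the window of a protein-coding gene. At mir-77 the summit had a signal of 67.0 and lay 224 bp upstream (chrII:12518822-12519265). It was also 185 bp upstream of the chemoreceptor gene srh-70, 937 bp upstream of the homeobox gene ceh-99 and 42 bp upstream of the snoRNA gene T21B4.20. At mir-5549 the summit had a signal of 98.8 and lay 29 bp upstream (chrIII:6971892-6972335). It was also 402 bp upstream of eef-1A.1, a translation elongation factor gene, and 139 bp upstream of rfc-4, a replication factor C subunit gene. At mir-8186-2 the summit had a signal of 73.0 and lay 224 bp upstream, and also 617 bp upstream of gmeb-1 (chrII:18699-19142). The hairpin of mir-8186-1 overlaps that of mir-8186-2 on the other strand, and for mir-8186-1 the same summit lies 283 bp downstream of the start, outside the window. To which of these genes a shared summit belongs cannot be told apart here.

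The windows of 2 of these summits carry the core of the HIF-1 site, and their sequences are shown for it, on the plus strand of ce11 with ACGTG or GCGTG on either strand in capitals.
mir-77, chrII:12518994-12519094: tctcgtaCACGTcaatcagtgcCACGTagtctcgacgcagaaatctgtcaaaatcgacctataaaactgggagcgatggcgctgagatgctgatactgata
mir-8186-2, chrII:18871-18971: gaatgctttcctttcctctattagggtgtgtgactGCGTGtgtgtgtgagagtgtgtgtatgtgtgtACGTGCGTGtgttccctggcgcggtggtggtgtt
The mir-77 window holds 2 cores and the mir-8186-2 window 3, within a run rich in GT repeats.

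The summit of mir-4929 was the only one of these 5 outside protein-coding promoter windows. It had a signal of 84.8 and lay 382 bp upstream of the hairpin in an intron of the host gene E01G4.3, on the same strand (chrII:13462024-13462467). It ranked 247 in replicate 1 and 372 in replicate 2.

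The gene mir-354 overlaps rps-20, a gene for a small ribosomal subunit protein, on the same strand. Its summit of 62.0 lay 865 bp upstream of the hairpin, outside protein-coding genes, and was also 253 bp upstream of rps-20 and 144 bp upstream of ekl-4. In the replicates it ranked 389 and 871, the widest gap in rank among the 9 summits. Of the 93 protein-coding genes that overlap a miRNA gene, 2 were bound (2.15%), rps-20 and gmps-1, a share near the 1.97% of all protein-coding genes. The gmps-1 summit (98.5) lay 215 bp upstream of that gene and 1763 bp upstream of mir-2216, which was not bound.

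**Figure D2:**
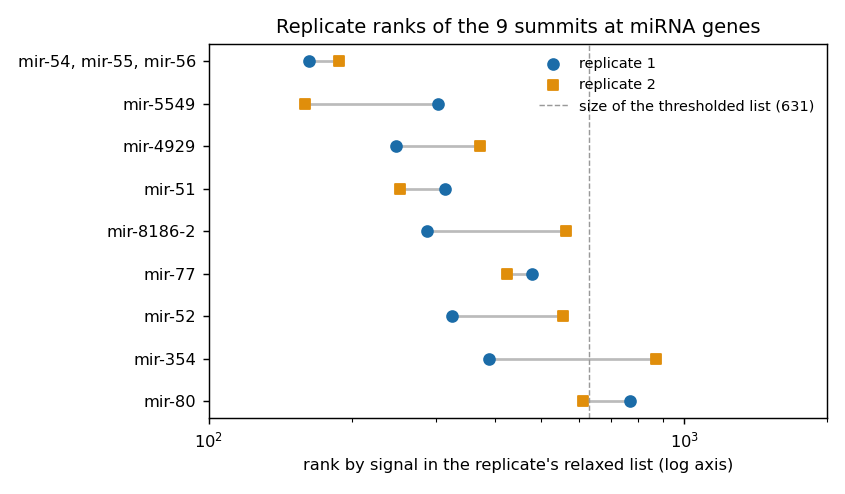
Rank by signal (horizontal axis, logarithmic, 1 being the strongest) of each of the 9 summits at miRNA genes in the relaxed list of replicate 1 (circles) and replicate 2 (squares), matched within 100 bp. Of the 9 summits, mir-354 in replicate 2 (871) and mir-80 in replicate 1 (770) lie to the right of the dashed line at 631, the size of the thresholded list.

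The 9 summits were of ordinary strength. Their signal ran from 54.7 to 109 with a median of 73.0, against 54.1 to 2270 and a median of 77.8 over all 631 thresholded summits. Of the 631, 612 lie on nuclear chromosomes, where all the miRNA genes are, and the rest are mitochondrial. All 9 had a match within 100 bp in both replicates, as had 94.5% of all thresholded summits, a list that was itself chosen for reproducibility. ACGTG or GCGTG lay within 50 bp of 3 of the 9 (33.3%), at mir-54 to mir-56, mir-77 and mir-8186-2, against 45.8% of all 631. In the longer windows of 1201 bp at gene starts, 87.0% of miRNA genes and 82.1% of nuclear protein-coding genes held 1 or more cores, so a match there separates few genes. GAGAGA and TGCGTC were searched on both strands as well, after the bound genes were known, and TGCGTC can share letters with a neighbouring core. GAGAGA lay within 50 bp of 4 of the 9 summits, at mir-52, mir-80, mir-4929 and mir-5549, against 23.9% of all summits. TGCGTC lay at 1 of the 9, at mir-77, against 15.2% of all.

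CTCCGCCC, a sequence described upstream of nematode miRNA genes, was searched on both strands after the bound genes were known. It lay within 50 bp of 2 of the 9 summits, those of mir-54 to mir-56 and of mir-80, and of 4 of all 631 (0.634%). In the windows of 1201 bp it was held by 39 of 261 miRNA genes (14.9%) and by 5.2% of nuclear protein-coding genes. These are counts of letters in the genome, and whether a protein binds there was not tested.

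The distance of the summit from the hairpin is given for both placements. Of the 6 bound genes between protein-coding genes, 5 had their summit within 250 bp upstream of the hairpin, the exception being mir-52. All 5 bound genes inside protein-coding genes had it further than 250 bp upstream. In the pooled list the bin from 250 bp upstream to the start held 12 summits for the 152 genes between protein-coding genes, and no other bin between 3000 bp upstream and 2000 bp downstream held more than 10. For the 109 genes inside protein-coding genes it held 4, and the fullest bin, with 9, lay from 750 to 1000 bp downstream. In replicate 1 the same bin held 10 for genes between and 4 for genes inside, and the fullest bins lay elsewhere, with 13 and 12. In replicate 2 it held 16 for genes between, the fullest bin. For genes inside it held 11 there, level with the bin beginning 500 bp downstream. Hairpins of a cluster share summits and are counted each.

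**Figure D3:**
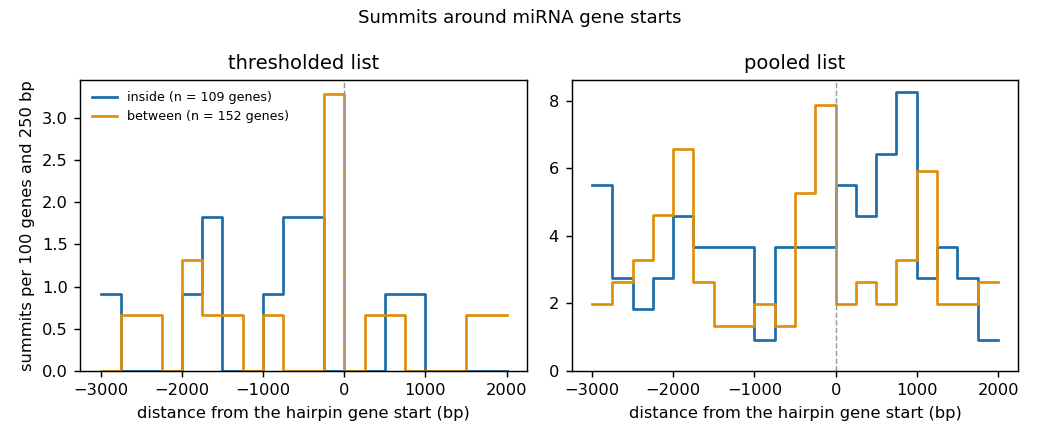
Peak summits per 100 miRNA genes in bins of 250 bp (vertical axis) against distance from the gene start in bp (horizontal axis, negative upstream), for the 109 genes inside and the 152 genes between protein-coding genes, in the thresholded list (left) and the pooled list (right). In both lists the line of genes between protein-coding genes has its highest bin in the 250 bp upstream of the start.

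By strand, 2 of 74 members whose host gene lies on the same strand were bound (2.7%, mir-354 and mir-4929), against 1.67% of all annotated and 1.97% of protein-coding genes, which lie within the interval of 0.744 to 9.33. With the host on the opposite strand 3 of 33 were bound (9.09%), mir-54, mir-55 and mir-56, from 1 summit. For 2 members with hosts on both strands there was none. By chromosome, 3 of 74 miRNA genes were bound on X, 3 of 49 on II, 2 of 50 on IV, 2 of 27 on III, 1 of 33 on I and 0 of 28 on V. The share was 4.05% on X and 4.28% on the autosomes, against 1.67% of all annotated genes. Shares of all genes on each chromosome are not given here, so no chromosome can be set against its own background. Members in clusters of hairpins within 2000 bp of each other on 1 strand were bound in 5 of 61 cases (8.2%) and lone hairpins in 6 of 200 (3.0%), against 4.21% of all miRNA genes and 1.67% of all annotated genes. These counts are small, and no difference between them was tested.

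The share of bound genes was set beside other classes of noncoding RNA. It was 4.21% for miRNA genes, against 14.5% of 346 snoRNA genes, 12.6% of 634 tRNA genes and 6.98% of 129 snRNA genes, all of which were higher. The snRNA interval of 3.71 to 12.7 overlaps the miRNA interval of 2.37 to 7.39. Of 22 rRNA genes 1 was bound (4.55%). The share was 2.38% for ncRNA, 2.06% for lincRNA, 2.0% for antisense RNA and 0.26% for piRNA genes, which were lower. As a measure that needs no gene classes, 0.698% of all nuclear positions on both strands would have counted as bound had a gene started there, with 0.562% of positions inside and 0.925% of positions between protein-coding genes. The bound shares of 4.59% inside and 3.95% between lie above these. No test of these differences was made.

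**Figure D4:**
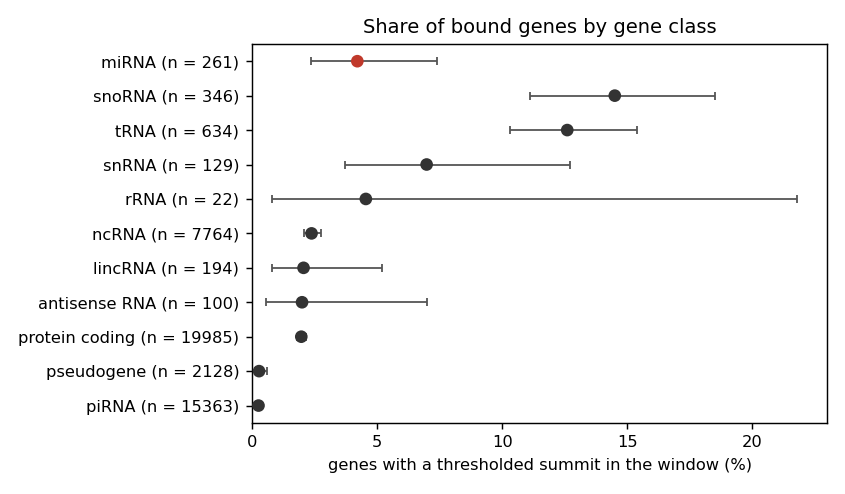
Percentage of genes with a thresholded summit in the window (horizontal axis) for each annotated gene class (vertical axis, with the number of genes), with 95% Wilson intervals that cover the number of genes only. The miRNA class (red, 4.21%) lies below the snoRNA and tRNA classes and above the protein-coding and piRNA classes.

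In the relaxed lists the ratio of the miRNA share to the background share was smaller than in the thresholded list. A summit of the pooled list lay in the window of 37 miRNA genes (14.2%), against 9.96% of all annotated and 12.2% of protein-coding genes. For replicate 1 there were 48 (18.4%), against 17.7% of all annotated and 20.5% of protein-coding genes, a share near the background. For replicate 2 there were 68 (26.1%), against 16.8% and 19.7%. Members inside and between protein-coding genes had 16 of 109 (14.7%) and 21 of 152 (13.8%) in the pooled list, 19 (17.4%) and 29 (19.1%) in replicate 1, and 30 (27.5%) and 38 (25.0%) in replicate 2. In both replicates a summit was present for 32 genes, which is 66.7% of those of replicate 1 and 47.1% of those of replicate 2. All 11 bound genes were among the 32. For protein-coding genes the shared part was 49.1% of those of replicate 1 and 51.2% of those of replicate 2. Of the 261 miRNA genes, 177 had no summit in any of the lists.

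**Figure D5:**
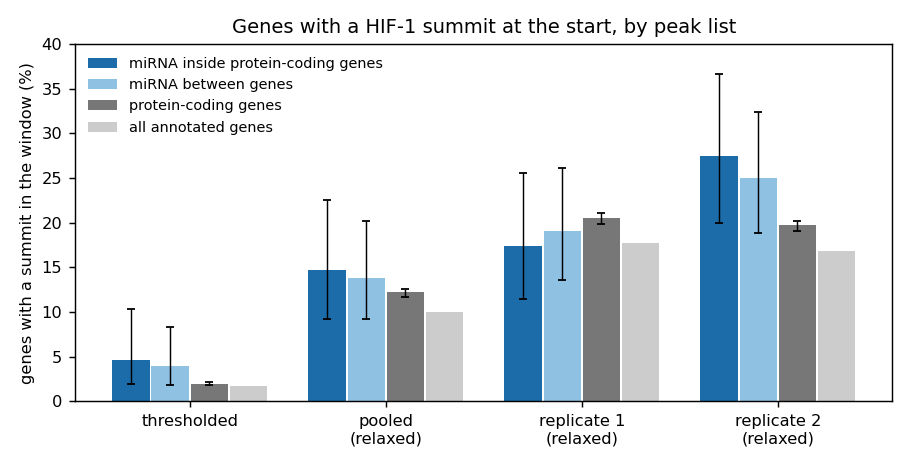
Percentage of genes with a summit in the window (vertical axis) in each of the 4 peak lists (horizontal axis) for miRNA genes inside and between protein-coding genes, all protein-coding genes and all annotated genes, with 95% Wilson intervals for the first 3. The miRNA bars stand above both others in the thresholded list (4.59% and 3.95% against 1.97% and 1.67%) and below the protein-coding bar in replicate 1 (17.4% and 19.1% against 20.5%).

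The next strongest members in the pooled list, below the thresholded signal, were mir-53 (45.2), mir-241 (43.9) and mir-60 (43.7). The strongest summit in the mir-241 window ranked 2282 in replicate 1 and 573 in replicate 2, and these were not within 100 bp of each other. In the mir-60 window the strongest summit ranked 798 in replicate 1 and 2413 in replicate 2. Over the 40 distinct pooled-list summits at miRNA genes the median signal was 31.5, against 26.4 over that whole list.

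Other miRNAs with known roles are given for description. With 4.21% of miRNA genes and 1.67% of all annotated genes bound, a count of 0 in a small family is not a result about that family. The let-7 family, which times larval development with lin-4, had 0 of 7 bound. Of its members mir-241 had the pooled summit above and mir-48 had one of 26.9, while let-7, mir-84, mir-793, mir-794 and mir-795 had none in any list at their starts. For lin-4 there was also none, and for mir-237, which shares its seed with lin-4, there was 1 in replicate 2 (9.98, rank 12450). The mir-35 family, needed for embryonic development, had 0 of 8 bound, and its only summit, at mir-42, had a pooled signal of 23.1. That summit also lay in the windows of mir-43 and mir-44, its neighbours in the cluster.

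Of the single miRNAs listed, mir-34, which acts in stress resistance, had a pooled summit of 24.5, and mir-71, which acts in lifespan, one of 28.7. For mir-1, a muscle miRNA, a summit was present in replicate 1 alone (11.9), and likewise for mir-124, a miRNA of sensory neurons (9.25). For lsy-6, which sets the asymmetry of a pair of taste neurons, there was none. The lists of replicate 1 and replicate 2 begin at 9.11 and 9.57. The mir-124 summit (rank 13365) thus lay near the bottom of its list, while that of mir-1 (rank 6531) was close to the replicate 1 median of 11.7.

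Some unbound members had a thresholded summit nearby. In all, 24 of 261 miRNA genes had one within 2500 bp of the start in either direction (9.2%), against 3.66% of nuclear protein-coding genes and 3.11% of all nuclear genes, and 13 of the 24 were not bound. The strongest of these 13 was a summit of 177 (rank 76) at 1536 bp upstream of mir-71, a gene inside ppfr-1. That summit was also 161 bp upstream of F16A11.13 and in the window of anr-20. For mir-34 a summit of 73.0 lay 1822 bp upstream, for mir-84 one of 64.3 lay 2311 bp upstream, and for mir-2221 one of 81.9 lay 1296 bp upstream, each in the window of no annotated gene. Another of 67.0, 1579 bp upstream of mir-2215, was also in no window. The summit nearest to mir-237 (58.7) lay 698 bp downstream of its start and in the windows of F22F1.5 and further annotated genes. Those nearest to mir-53 and mir-238 were the summits of mir-51 and mir-80. The others in this group were mir-235, mir-259, mir-2216, mir-8186-1 and mir-55b.

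The genes of the miRNA pathway were counted with the same window. Of 22 matched pathway genes, 5 were bound, against 1.97% of protein-coding genes. The list was chosen with earlier results of these data known, so the count is a description and not a measure of enrichment. The strongest was nhl-2, which encodes a cofactor of the miRNA-induced silencing complex, whose summit had rank 38 in the thresholded list and lay 813 bp upstream (chrIII:4899844-4900007), in the window of tag-340 too. Its window had a signal of 122 in replicate 1 (rank 42) and 114 in replicate 2 (rank 38). It was followed by ifet-1, a translational repressor gene (141, 515 bp upstream), whose summit also lay in the window of the ribosomal protein gene rps-1. The gene ain-1, for a GW182-like partner of the Argonautes, had a summit of 102 at 972 bp upstream, and vig-1, for a component of the silencing complex, one of 92.0 at 429 bp upstream, both in no other protein-coding window. The last was pqn-59 (57.5, 649 bp upstream), together with taf-4. ACGTG or GCGTG lay within 50 bp of the summits of nhl-2, ifet-1 and ain-1.

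The core enzymes and Argonautes of the pathway were not bound. In the pooled list the Drosha gene drsh-1 had a summit of 24.3, its partner gene pash-1 one of 28.2 and the Argonaute gene alg-5 one of 33.1. For the Dicer gene dcr-1, the Argonaute genes alg-1 and alg-2, and ain-2, xrn-1 and ebax-1 there was none in any list. Of the 6 targets of the larval timing miRNAs, lin-14, lin-41, hbl-1, daf-12, lin-42 and lin-29, none was bound, against 1.97% of protein-coding genes. At that share, a lack of calls in so small a set, or in the core enzymes and Argonautes, is not a result about those genes. The gene lin-14 had a pooled summit of 30.7. For daf-12, a nuclear receptor gene, the nearest thresholded summit lay 1732 bp downstream of the start.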

How the data were processed

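ChIP-seq of HIF-1 was analysed in 2 biological replicates of 1 group, and replicate numbers come from the labels. The authors deposited peak lists on ce11 in narrowPeak layout. Relaxed lists were made per replicate and for pooled reads from alignments and 1 control, per the files that describe the deposit, and the thresholded list was derived from all of them. Names and settings of the aligner and caller, and the threshold, were not given in the sources used here. Each deposited signal value is the authors' own and was used to rank peaks within a list. The deposited −log10 q-value was not used. The lists on ce10 were not used, and no coordinates were converted. No peak on ce11 reached past the end of its RefSeq WBcel235 chromosome.

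Gene models were those of Ensembl release 115. The summit is the peak start plus the deposited offset, and coordinates are 1-based. A miRNA gene is inside when it overlaps a protein-coding gene span on either strand. Mature arms were read at RefSeq coordinates, found for 257 of 261 genes. Names carry no species prefix, and 1 gene given by a database number was named let-7 from RefSeq. Of 23 pathway genes 22 matched an annotated name. Counts are descriptions and no significance test was made. The 95% Wilson intervals of shares reflect gene number alone. The members and lists were chosen with earlier results of these data known. Named genes are all bound members, the 10 strongest in the pooled list, those with a thresholded summit within 2500 bp, their host genes, protein-coding genes sharing their summits, and the named families. Outside this rule, noncoding genes sharing a summit, mir-60, mir-43, mir-44, mir-58c and mir-2209a were added after their values were seen. The assignment of summits was tested on planted summits. Python 3.11.15, pandas 2.3.3 and scipy 1.17.1 were used.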

Additional observations from a re-analysis of the deposited data

How the results depend on the processing

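The count of bound miRNA genes was 11 of 261 and moved with the window and with the strength required. It was 7 when summits had to lie between 500 bp upstream and 100 bp downstream (2.68%, all annotated genes 1.16%), without mir-52, mir-55, mir-56 and mir-354, and 18 with 2000 bp upstream to 500 bp downstream (6.9%, all annotated genes 2.26%), with mir-34, mir-71, mir-235, mir-2215, mir-2216, mir-2221 and mir-8186-1 added. It was 6 in the stronger 50% of peaks (2.3%, all annotated genes 0.81%). It was 7 when summits in protein-coding promoter windows were left out (2.68%, all annotated genes 0.505%). In that setting no protein-coding gene can be bound, so the share of all annotated genes is lowered by design and is not a like background. Inside protein-coding genes the count of 5 became 2 of 109 with the narrow window (1.83%, all annotated genes 1.16%). It became 3 of 95 with hairpins within 2000 bp counted as 1 cluster (3.16%). When inside meant whole and on the same strand of the host, it was 2 of 74 (2.7%, all annotated genes 1.67% in the main window). Between genes the count of 6 became 11 of 152 with the wide window (7.24%, all annotated genes 2.26%). It was 2 in the stronger 50% (1.32%, all annotated genes 0.81%) and 3 without promoter summits (1.97%, all annotated genes 0.505%, with the limit above). The cause was not tested beyond what each setting itself changes. Counting any overlap of the peak with the window gave 12 (4.6%, all annotated genes 1.88%). Without replicate 1 or without replicate 2, using the 631 strongest peaks of the other, the count was 11 both times (4.21%). The shares of all annotated genes were 1.62% and 1.61%. Of the main 11 genes, 10 were shared each time. Without replicate 1 mir-354 was lost and mir-241 gained, and without replicate 2 mir-80 was lost and mir-53 gained. Of the mir-51 family, 5 of 6 were bound without replicate 1 (all annotated genes 1.62%) and 6 of 6 without replicate 2 (all annotated genes 1.61%). With the narrow window it was 2 of 6 (all annotated genes 1.16%). Counted as clusters, 9 of 222 were bound (4.05%), for which no like share of all genes was computed. No paired analysis was possible because there is only 1 group. The depth is unknown, so whether an unbound gene was missed for lack of reads cannot be told.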
